A study of Mus musculus with 6 samples.

Results

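The nuclear-encoded subunits of the 5 oxidative phosphorylation complexes were followed in brain endothelial cells of mouse embryos. A gene was taken as a member by its symbol (Nduf a, b, c, s or v with a number, Sdh a to d, Uqcr, Cox4 to Cox8, or Atp5) and by a mean of at least 1 RPKM, a read count scaled to transcript length and library size, over all 6 libraries. Of 83 rows with such a symbol among 23827 listed genes, 76 were members: 34 of complex I, 4 of complex II, 8 of complex III, 14 of complex IV and 16 of complex V. Ndufa4 is counted with complex IV, to which its protein is now assigned. The symbols also take Atp5s, Atp5sl and Cox7a2l, which are not classical subunits. Just inside the limit lay Cox7a1, with a mean of 2.23 RPKM, and Atp5s, with 3.70 RPKM. Just outside were Cox4i2 (0.394 RPKM) and Atp5g2 (0.387 RPKM), and below them Cox7b2 (0.102 RPKM), Cox6a2 (0.034 RPKM) and Cox8b, Cox8c and Ndufs5, each listed at 0 in every library. All 76 members also had a mean of at least 1 RPKM in each group alone.

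The libraries were made by translating ribosome affinity purification, in which tagged ribosomes of a chosen cell type are pulled down with the RNA they carry, followed by sequencing of polyadenylated RNA. There were 3 wild-type libraries and 3 from embryos overexpressing Axin1, which holds together the machinery that destroys beta-catenin, from a Rosa26 allele that also carries LacZ. All embryos were at E14.5 on a mixed C57BL/6 x 129/Sv background, and every mother, wild-type litters included, had received tamoxifen at E12.5. The labels call the 3 libraries of a group biological replicates, and they do not name the promoter or Cre line that selects the cells. The question behind the comparison is how dampened Wnt/beta-catenin signalling changes the RNA that brain endothelium translates.

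Oxidative phosphorylation takes place in the inner mitochondrial membrane. Complex I (NADH dehydrogenase) and complex II (succinate dehydrogenase, also an enzyme of the citric acid cycle) pass electrons to ubiquinone, complex III hands them to cytochrome c, and complex IV (cytochrome c oxidase) gives them to oxygen. Complexes I, III and IV pump protons, and complex V, the ATP synthase, uses the gradient to make ATP. Endothelial cells are known for drawing much of their energy from glycolysis, while brain endothelium is known for its many mitochondria.

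Axin1 itself stood at 14.4 RPKM on average in wild type and 37.8 RPKM in the Axin1 group, 1.34 higher on the log2 scale (adjusted p = 2.25e-05 by limma). Reads recovered from the deposited values ranged from 53524184 to 62507510 in wild type and from 21076922 to 37040176 in the Axin1 group, which makes wild type 1.84 times deeper on average. All wild-type column names share a tag and all Axin1 column names share another, with a meaning not given in the sources used here. Should it stand for a batch, batch and genotype cannot be told apart. Endothelial markers were high in every library, with a summed level of 4028 to 4143 RPKM over 10 genes in wild type and 3249 to 3505 RPKM in the Axin1 group, where 4 of the 10 were lower. These were Cldn5 (means of 1263 and 748 RPKM), Slc2a1 (722 and 547 RPKM), Tie1 and Esam. The other genes did not pass, with Pecam1, Cdh5 and Egfl7 above their wild-type means and Kdr, Tek and Flt1 below. Of the markers of other cell types, 8 of 12 neural progenitor genes were higher (summed level 597 to 730 against 800 to 881 RPKM), as were 5 of 11 neuronal genes (542 to 691 against 678 to 695 RPKM) and all 5 tested of 12 listed erythroid genes (120 to 166 against 414 to 775 RPKM, with Hba-a1, Hba-a2 and Hbb-b1 listed at 0 throughout). The erythroid sums include Hbb-b2, at means of 36.1 and 113 RPKM. Its level is uncertain, as it rests on averages of 8.33 and 14.7 reads over an implied length of 4 bases. Lower were 4 of 9 pericyte and smooth muscle genes (44.5 to 52.4 against 31.9 to 45.1 RPKM) and 3 of 11 meningeal fibroblast genes (171 to 237 against 137 to 168 RPKM), and 1 of 7 microglial genes, Aif1, was higher. These marker counts stand beside 14.4% of all tested genes higher and 8.37% lower in the same limma test. The microglial count was near that background. The part of these cell types in the results below was not tested, and in such bulk samples fewer cells of a type and less RNA per cell cannot be told apart.

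The subunit genes moved little with Axin1 overexpression. In limma on log2(RPKM + 1), with Benjamini-Hochberg adjustment over 12493 tested genes and a threshold of 0.05, 14 of 76 members were higher (18.4%), 2 were lower (2.63%) and 60 did not pass. Of all tested genes, 14.4% were higher and 8.37% lower. The members' share of higher genes was thus near the background, and their share of lower genes was below it. The log2 fold changes of the members ran from -0.40 to 0.52 with a median of 0.10, against a median of 0.04 for all tested genes, and 67 of the 76 were smaller than 0.25 in size. The sign leaned to the Axin1 side, as 62 of the 76 members had a log2 fold change above 0 (81.6%, against 58.8% of all tested genes). The groups did not overlap for 29 members higher in the Axin1 group (38.2%) and 5 lower (Cox7a1, Ndufv1, Ndufa7, Ndufb11 and Uqcrq, 6.58%), against 28.0% and 15.9% of all tested genes. Leaving out a single library brought the higher members to between 3 (without Axin1 replicate 2 or 3) and 14, with 6, 8 and 4 without wild-type replicates 1, 2 and 3, and the lower members to 0 or 1. Rescaling by the median of ratios changed the split to 6 higher and 4 lower (Cox7a1, Ndufv1, Ndufa7 and Uqcrq), where the background is 9.99% and 11.1%.

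**Figure D1:**
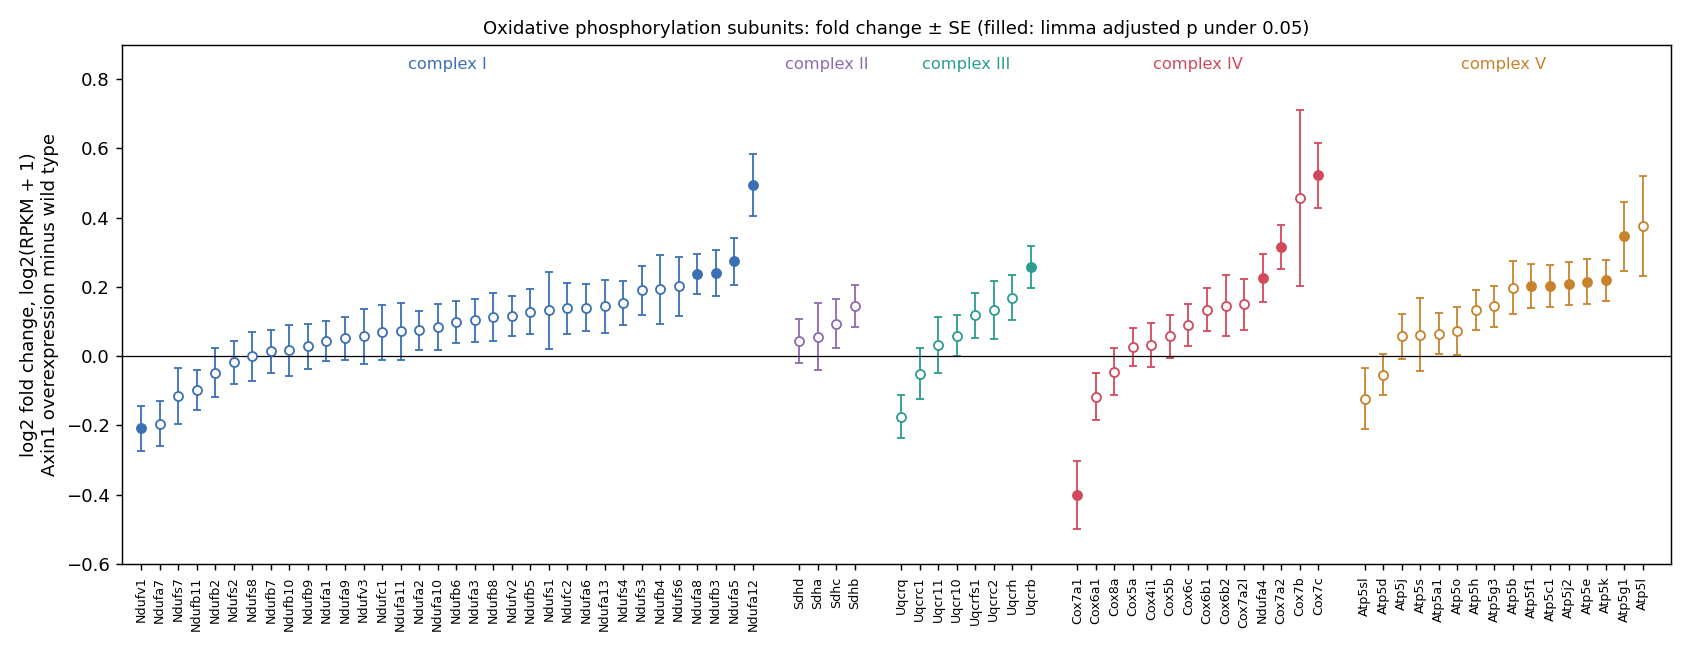
Log2 fold change of each of the 76 members (Axin1 overexpression minus wild type, log2(RPKM + 1), n = 3 libraries per group), ordered within complexes I to V; bars are standard errors and filled points passed limma at an adjusted p under 0.05. Most points lie between 0 and 0.25, and Cox7c (0.52), Ndufa12 (0.49) and Cox7a1 (-0.40) lie farthest out among those that passed.

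The summed level of all members was 10421, 10024 and 10062 RPKM in wild type and 10492, 10864 and 11176 RPKM in the Axin1 group, a ratio of 1.07. The groups did not overlap, and Axin1 replicate 1 lay close to the highest wild-type library. The median member stood above its own wild-type mean by 0.06, 0.12 and 0.16 (log2) in Axin1 replicates 1, 2 and 3, and the wild-type libraries lay between -0.02 and 0.03. In the same libraries the median of all tested genes was 0.01, 0.06 and 0.06. Replicates were tight for most members, with a median coefficient of variation of 4.44% in wild type and 4.58% in the Axin1 group. In wild type it was highest for Cox7b, a small complex IV subunit, at 31.8%, followed by Atp5l at 21.1%, Atp5s at 19.6%, Ndufs1 at 15.9% and Ndufb4 at 15.0%. The levels of Cox7b were 110, 64.7 and 67.0 RPKM in wild type (80.6 ± 25.6 RPKM, SD, n = 3) and started at 76.1 RPKM in the Axin1 group (111 ± 34.5 RPKM, SD, n = 3). The groups overlapped, and its log2 fold change of 0.46 (SE 0.25) did not pass (adjusted p = 0.217).

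In complex I, 4 of 34 members were higher (11.8%, against 14.4% of all tested genes) and 1 was lower (2.94%, against 8.37%). The median log2 fold change was 0.09. The core subunits, which carry the flavin and most iron-sulfur clusters, and the accessory subunits, which surround them, were counted apart. Of 7 core subunits 0 were higher and 1 was lower (median -0.00069, from -0.21 to 0.19), and of 27 accessory subunits 4 were higher (14.8%, against 14.4% of all tested genes) and 0 lower (median 0.10, from -0.20 to 0.49). At an unadjusted p under 0.05 in limma, 1 core subunit was higher and 1 accessory subunit lower, and with voom 0 of each. The difference between these groups was not tested.

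Ndufa12, an accessory subunit added late in the assembly of the complex, was at 25.6, 27.2 and 24.6 RPKM in wild type and at 32.0, 39.7 and 38.9 RPKM in the Axin1 group. All 3 Axin1 libraries lay above all wild-type libraries, replicate 1 the least. The means were 25.8 ± 1.30 and 36.9 ± 4.26 RPKM (SD, n = 3), and the log2 fold change was 0.49 (SE 0.09, adjusted p = 0.00819 by limma). It was the only member called under all 17 alternatives tried, with log2 fold changes from 0.33 to 0.59. The authors' deposited table also lists it as higher, at 1.38 times the wild-type value (adjusted p = 0.00258). Of the 31-base windows of its transcript, 59.0% also occur in an annotated pseudogene, so reads could have been shared between copies and its level is uncertain.

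Ndufa8, an accessory subunit of the intermembrane space side, was at 173, 178 and 166 RPKM in wild type and 201, 204 and 204 RPKM in the Axin1 group (log2 fold change 0.24, SE 0.06, limma adjusted p = 0.0225). Ndufa5, an accessory subunit of the matrix arm, was at 72.9, 70.4 and 68.1 RPKM against 79.4, 89.5 and 87.7 RPKM (0.27, SE 0.07, adjusted p = 0.0233). Ndufb3, of the membrane arm, was at 55.2, 57.3 and 53.1 RPKM against 61.7, 69.1 and 65.6 RPKM (0.24, SE 0.07, adjusted p = 0.0338). None of the 3 overlapped between the groups. The calls of Ndufa8 and Ndufb3 ended when wild-type replicate 1 or 3 or Axin1 replicate 2 or 3 was left out, and that of Ndufa5 for wild-type replicate 3 and Axin1 replicates 2 and 3.

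Ndufv1, the core subunit that binds NADH and the flavin, went the other way. It was at 85.0, 76.5 and 81.8 RPKM in wild type and 68.3, 69.3 and 72.4 RPKM in the Axin1 group. The highest Axin1 library lay below the lowest wild-type library. The log2 fold change was -0.21 (SE 0.06, limma adjusted p = 0.0483), a call lost when any library but wild-type replicate 2 was left out. Its partner Ndufv2, named after its values were seen, had a log2 fold change of 0.11 (adjusted p = 0.178). Ndufa7, an accessory subunit also named afterwards, was at 123, 126 and 135 RPKM against 108, 111 and 117 RPKM, and missed the threshold (-0.20, adjusted p = 0.0616). Ndufa2 had the highest wild-type mean of the complex (182 RPKM) and Ndufb4 the lowest (8.16 RPKM), and neither passed (0.07 and 0.19). Ndufb4 shares 38.3% of its windows with annotated pseudogenes, so its low level is uncertain.

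None of the 4 subunits of complex II passed, by limma or by voom on recovered reads, and 1, Sdhb, was higher at an unadjusted p under 0.05 in limma. Sdha, the flavoprotein that oxidises succinate, was at 96.4, 78.5 and 97.5 RPKM in wild type and 99.2, 86.5 and 96.7 RPKM in the Axin1 group. Sdhb, the iron-sulfur subunit, was at 118, 118 and 122 RPKM against 127, 129 and 139 RPKM, without overlap (log2 fold change 0.15, adjusted p = 0.117). The membrane anchors Sdhc and Sdhd had means of 104 and 95.6 RPKM in wild type and overlapped between the groups (0.09 and 0.04). The wild-type means of the 4 genes lay between 90.8 and 119 RPKM, a narrow range beside those of complexes IV and V.

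In complex III, 1 of 8 members was higher and 0 lower in limma, where 14.4% of all tested genes were higher and 8.37% lower. The count of higher members was near that background. At an unadjusted p under 0.05 in limma 1 member was lower, and with voom 0 were. The median log2 fold change was 0.09. Uqcrb, which helps form the ubiquinone site, was at 58.7, 59.1 and 61.4 RPKM in wild type and 69.9, 75.1 and 70.0 RPKM in the Axin1 group. All Axin1 libraries were above all wild-type libraries (log2 fold change 0.26, SE 0.06, limma adjusted p = 0.0194), and the call ended when wild-type replicate 1, Axin1 replicate 2 or Axin1 replicate 3 was left out. It shares 54.3% of its windows with annotated pseudogenes and is uncertain in the same way as Ndufa12. Uqcrq, a small accessory subunit with the highest level of the complex, was at 314, 323 and 308 RPKM against 270, 272 and 296 RPKM. Its groups did not overlap and it missed the threshold (-0.17, adjusted p = 0.0771). Uqcrh, the hinge subunit next to cytochrome c1, missed it in the other direction (0.17, adjusted p = 0.0908). Uqcrfs1, the Rieske iron-sulfur protein, had a log2 fold change of 0.12 (adjusted p = 0.208).

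Complex IV held the largest changes in both directions. Of its 14 members 3 were higher (21.4%, against 14.4% of all tested genes) and 1 was lower (7.14%, against 8.37%). The median log2 fold change was 0.11. Cox7c, a small membrane subunit, was at 7.61, 5.98 and 6.28 RPKM in wild type and 9.23, 10.9 and 9.60 RPKM in the Axin1 group. Every Axin1 library was above every wild-type library, with means of 6.62 ± 0.869 and 9.93 ± 0.900 RPKM (SD, n = 3). The log2 fold change was 0.52 (SE 0.10, limma adjusted p = 0.00822), and the authors' deposited table lists it at 1.45 times the wild-type value (adjusted p = 0.035). Cox7c shares 31.8% of its windows with annotated pseudogenes and stood far below most other subunits of its complex, whose median wild-type level was 141 RPKM. Its level is therefore uncertain.

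Cox7a occurs in a ubiquitous form, Cox7a2, and a heart and skeletal muscle form, Cox7a1, and these moved apart. Cox7a2 was at 122, 128 and 125 RPKM in wild type and 150, 153 and 165 RPKM in the Axin1 group (log2 fold change 0.32, SE 0.06, limma adjusted p = 0.0117). Cox7a1 was at 2.82, 2.97 and 2.24 RPKM against 1.58, 1.70 and 2.07 RPKM (-0.40, SE 0.10, adjusted p = 0.0219). Neither gene overlapped between the groups, although the highest Axin1 library of Cox7a1 came close to the lowest wild-type library. The level of Cox7a2 was 43.2, 43.0 and 55.8 times that of Cox7a1 in wild type and 94.9, 89.9 and 79.9 times in the Axin1 group, so that this ratio did not overlap either. The Cox7a2 call held without any single library. The Cox7a1 call rested on an average of 56.3 reads per wild-type and 20 reads per Axin1 library, and ended when either of wild-type replicates 1 and 2 or of Axin1 replicates 1 and 2 was left out, with a pseudocount of 10 (-0.11), with no filter and with voom on recovered reads. Of the pericyte and smooth muscle markers, 4 of 9 were lower in the same libraries, as given above, and Abcc9 leaned the other way (0.07). Those calls fell to 0 without wild-type replicate 1, without Axin1 replicate 2 or 3, and with a pseudocount of 10. The part of these markers' cells in the Cox7a1 difference was not tested. The related gene Cox7a2l, which joins complexes III and IV into supercomplexes, had a log2 fold change of 0.15 (adjusted p = 0.164).

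The upstream sequences of the Cox7a pair and of Cox7c are shown because these are the 3 complex IV genes that passed with the largest log2 fold changes, in opposite directions. They are stretches of 120 bases outside annotated exons from RefSeq promoters of the build GRCm38.p6, 5′ to 3′ on the strand of the gene, and capitals mark the SP1 box GGGCGG. Cox7a2 lies at chr9:79759879-79759998 (minus strand), Cox7a1 at chr7:30184024-30184143 (plus strand) and Cox7c at chr13:86046905-86047024 (minus strand), ending 25, 27 and 109 bases before the annotated starts.
Cox7a2: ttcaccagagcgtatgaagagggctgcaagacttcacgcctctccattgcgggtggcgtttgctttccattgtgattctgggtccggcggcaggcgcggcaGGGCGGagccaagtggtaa
Cox7a1: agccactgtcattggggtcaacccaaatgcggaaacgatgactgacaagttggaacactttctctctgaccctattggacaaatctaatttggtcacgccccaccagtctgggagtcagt
Cox7c: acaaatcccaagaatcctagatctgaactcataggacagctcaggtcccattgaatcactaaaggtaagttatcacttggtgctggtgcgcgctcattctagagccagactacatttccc
The Cox7a2 stretch has 60% G and C and an SP1 box, and the Cox7a1 and Cox7c stretches have 49.2% and 45.8% and hold none of the 4 motifs searched.

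These motifs, of factors known to act at mitochondrial genes, were searched on both strands in the 300-base promoters of the 62 members that the RefSeq table holds, from 250 bases before to 50 after the start. None of the motifs contains another. The NRF1 motif GCGCATGCG was in 7 of the 62 (11.3%, against 1.95% of 27025 genes in the table and 4.17% of the tested genes in it). The ETS motif CCGGAAG was in 16 (25.8%, against 9.93% and 19.8%), and the YY1 motif AAGATGGCG in 7 (11.3%, against 1.64% and 3.65%). The SP1 box was in 24 (38.7%, against 38.2% and 71.3%). Members with and without a motif had median log2 fold changes of 0.07 and 0.12 for NRF1, 0.12 and 0.12 for ETS, 0.07 and 0.12 for YY1, and 0.14 and 0.07 for SP1. A motif match is a description of these letters and not evidence of binding.

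Of the other complex IV genes, Ndufa4 was at 325, 324 and 325 RPKM in wild type and 352, 380 and 409 RPKM in the Axin1 group (log2 fold change 0.23, SE 0.07, limma adjusted p = 0.0463). All Axin1 libraries lay above the wild-type libraries, and the call was lost without any library but Axin1 replicate 1. Cox4i1, a main subunit for regulation by ATP and the member with the highest wild-type mean, was at 530, 491 and 485 RPKM against 496, 512 and 533 RPKM. The groups overlapped (0.03, adjusted p = 0.733). Among pairs of tissue forms with values in every library, Cox4i1 stood 1022 to 1903 times above Cox4i2, a form induced by low oxygen, and Cox6b1 stood 23.3 to 30.6 times above Cox6b2, known from testis. Cox6a1 had a wild-type mean of 383 RPKM, and its heart and muscle form Cox6a2 was at 0.068 RPKM in wild type and listed at 0 in the Axin1 group. Cox8a was at 269 RPKM, and Cox8b and Cox8c were listed at 0, which cannot be read as a level since Ndufs5, a complex I subunit that all cells use, is listed at 0 as well.

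Of the 16 members of complex V, 6 were higher (37.5%, against 14.4% of all tested genes) and 0 lower (against 8.37%), with a median log2 fold change of 0.17. In limma 0 members of this complex were lower at an unadjusted p under 0.05 as well, and with voom 5 were higher and 0 lower. With the replicate block, and likewise with a pseudocount of 0.1, 1 member of the complex was higher, Atp5k. For 10 of the 16 the Axin1 libraries lay above all wild-type libraries, and for 0 below, where 28.0% of all tested genes lay above and 15.9% below, and 36.8% and 8.37% of the other genes of up to 1500 bases. The summed level was 3056, 2956 and 2992 RPKM in wild type and 3216, 3339 and 3393 RPKM in the Axin1 group, a ratio of 1.10. The count of higher members was 1 without wild-type replicate 1 or 2 and 4 without Axin1 replicate 1. It was 0 when any of wild-type replicate 3, Axin1 replicate 2 and Axin1 replicate 3 was left out. With the libraries rescaled by the median of ratios or by the upper quartile 0 members of complex V passed.

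Subunits of complex V were grouped by role after the values were seen. Among those of the F1 head and central stalk, where ATP is made, 2 of 5 were higher. The shares were 14.4% of all tested genes and 20.8% of the other genes of up to 1500 bases. After the length correction described below, 0 of the 5 passed. Atp5c1, the gamma subunit that turns inside the head, was at 132, 125 and 124 RPKM in wild type and 141, 147 and 152 RPKM in the Axin1 group (log2 fold change 0.20, SE 0.06, limma adjusted p = 0.0445). Atp5e, the small epsilon subunit, was at 402, 422 and 412 RPKM against 452, 478 and 507 RPKM (0.22, adjusted p = 0.0445). Atp5b, the catalytic beta subunit, was named after its values were seen. It was at 485, 422 and 508 RPKM against 541, 539 and 539 RPKM and missed the threshold (0.20, adjusted p = 0.0947). For all 3 genes the Axin1 libraries lay above the wild-type libraries.

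In the membrane part, 2 of 3 small subunits were higher, where 14.4% of all tested genes and 20.8% of the other genes of up to 1500 bases were. After the length correction described below, 0 of the 3 passed. Atp5k was at 142, 148 and 144 RPKM in wild type and 164, 176 and 167 RPKM in the Axin1 group (log2 fold change 0.22, SE 0.06, limma adjusted p = 0.0312). Atp5j2 was at 222, 219 and 215 RPKM against 240, 257 and 264 RPKM (0.21, adjusted p = 0.0418). Atp5l had the largest log2 fold change of the complex and did not pass (0.38, SE 0.14, adjusted p = 0.0921), with 6.88, 7.72 and 5.02 RPKM against 7.98, 7.89 and 10.3 RPKM. Its lowest Axin1 library lay close to the highest wild-type library, and it shares 69.6% of its windows with pseudogenes.

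The proton-carrying c ring is made of 1 mature protein encoded by 3 genes. Atp5g3 was the main source, at 509, 501 and 477 RPKM in wild type and 534, 551 and 557 RPKM in the Axin1 group (log2 fold change 0.14, adjusted p = 0.106). Atp5g1 was at 5.97, 5.78 and 4.63 RPKM against 6.83, 6.68 and 8.10 RPKM (0.35, SE 0.10, limma adjusted p = 0.0398). Both were without overlap, and Atp5g3 stood 68.8 to 103 times above Atp5g1. Atp5g1 and Atp5g2 share 67.3% and 58.6% of their windows with pseudogenes, so their low levels are uncertain. Of the peripheral stalk, Atp5f1 was higher and 3 of 4 did not pass (0.20, limma adjusted p = 0.0498 for Atp5f1). Atp5f1 shares 28.9% of its windows with pseudogenes. Leaving out single libraries ended the calls of Atp5j2, Atp5e and Atp5f1 for every library but Axin1 replicate 1, that of Atp5g1 for every library but wild-type replicate 1, that of Atp5c1 for every library, and that of Atp5k for wild-type replicate 1 or 3 and Axin1 replicate 2 or 3. The calls of Atp5j2, Atp5e, Atp5f1, Atp5g1 and Atp5c1 were also lost with the replicate block and with a pseudocount of 0.1, as were those of Ndufa4 and Ndufv1.

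**Figure D2:**
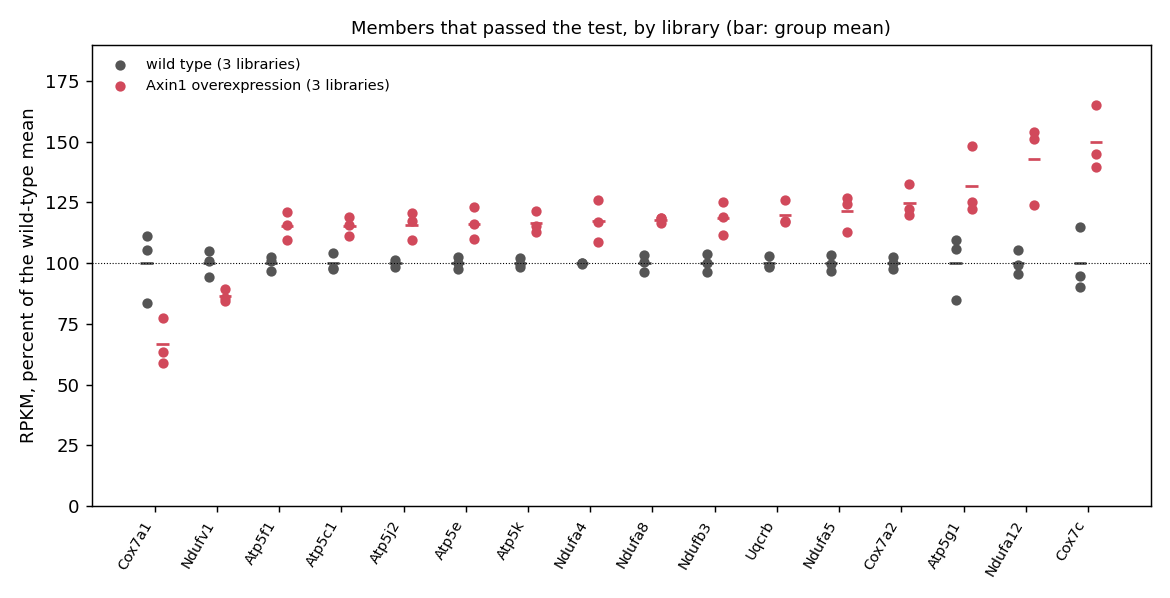
RPKM of the 16 members that passed, each library as a percentage of the gene's wild-type mean, for 3 wild-type (grey) and 3 Axin1 overexpression (red) libraries; short bars are group means. The groups do not overlap for any of the 16, and Cox7a1, Cox7c and Atp5g1 show a wide spread among the wild-type libraries.

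Most of these genes are short, and fold changes followed transcript length over the whole table. The median length of the members was 677 bases, against 2813 bases for all tested genes. Among tested genes that are no members, the median log2 fold change was 0.17 up to 500 bases, 0.11 from 500 to 1000, 0.10 from 1000 to 1500, 0.07 from 1500 to 2500, 0.04 from 2500 to 4000 and -0.03 above 4000 bases. The 65 members of up to 1500 bases had a median of 0.11, and the 2221 other genes of that length had 0.11 as well. Of these members 21.5% were higher and 1.54% lower, against 20.8% and 4.41% of the other genes. Members were therefore close to other genes of their length in median and in higher calls. Among the members alone, length and log2 fold change had a Spearman rho of -0.112 (n = 76), against -0.251 over all 12493 tested genes. GC content and log2 fold change had -0.432 and -0.331. These are descriptions over genes that share the same 6 libraries.

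When each library was corrected by a smooth curve on transcript length, the members' median log2 fold change went from 0.10 to -0.013. Of the 76 members 2 were then higher, Ndufa12 (0.34, limma adjusted p = 0.0198) and Cox7c (0.36, adjusted p = 0.0256), and 8 were lower. The background after this correction was 11.0% higher and 9.70% lower. The lower members were Cox7a1 (-0.57), Ndufa7 (-0.36), Uqcrq (-0.33), Ndufv1 (-0.28), Cox6a1 (-0.27), Ndufs7 (-0.24), Ndufb11 (-0.23) and Ndufb2 (-0.21), with adjusted p between 0.00404 and 0.0446. Cox7a2 was at 0.19 and no longer passed (adjusted p = 0.0559). The medians of complexes I to V became -0.031, 0.010, -0.045, -0.045 and 0.027, and 0 members of complex V passed in limma. With length and GC content corrected together, 1 member was higher (Ndufa12, 0.33, adjusted p = 0.0376) and 5 were lower, Cox7a1 (-0.51), Uqcrq (-0.35), Ndufa7 (-0.30), Ndufb11 (-0.24) and Ndufv1 (-0.22), where the background is 7.93% and 7.35%. The lean of the subunits to the Axin1 side was thus present on the deposited scale and absent after these corrections, while the directions of Ndufa12, Cox7c, Cox7a2, Cox7a1 and Ndufv1 were the same on each.

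**Figure D3:**
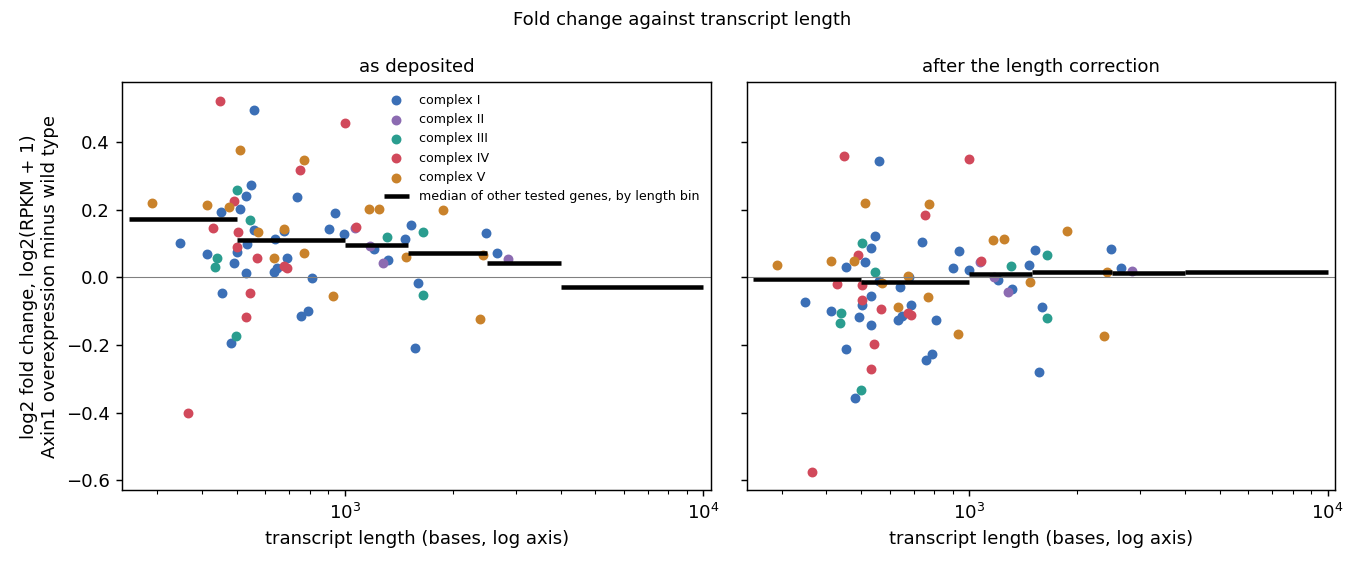
Log2 fold change (Axin1 overexpression minus wild type, log2(RPKM + 1)) of the 76 members against transcript length in bases (log axis), as deposited (left) and after a loess correction of each library on length (right); black lines are medians of the other tested genes in bins of length. On the left the black lines fall from 0.17 to -0.03 with length and most members lie around them; on the right the lines are near 0 and the members' median is -0.013.

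The authors' deposited table, from their own test, calls 2 members higher (Ndufa12 and Cox7c) and 0 lower, where 3.91% of 18917 genes were higher and 4.97% lower. In it Ndufv1 stood at 0.836 times the wild-type value (adjusted p = 0.0663) and Cox7a2 at 1.21 times (adjusted p = 0.0775).

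Several subunit genes have many processed pseudogenes, copies of their RNA inserted elsewhere in the genome. Over the members the median share of 31-base windows found in an annotated pseudogene was 1.52%, and 5 members reached 50% (6.58%, against 1.08% of tested genes): Atp5l, Atp5g1, Atp5h, Ndufa12 and Uqcrb. Of 15 members with at least 20% of such windows, a limit set after the values were seen, 6 were higher and 0 lower, with a median log2 fold change of 0.20. Of the other 61 members 8 were higher and 2 lower, with a median of 0.07. Of all tested genes 14.4% were higher and 8.37% lower. After the length correction the medians of these groups of 15 and 61 members were 0.050 and -0.033. The difference between them was not tested. Across the 76 members this share and the log2 fold change had a Spearman rho of 0.403, and the share and the wild-type level had -0.154. How the authors counted reads with several matches was not given in the sources used here. Ndufs5, listed at 0 in all libraries, shares 47.3% of its windows with pseudogenes.

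**Figure D4:**
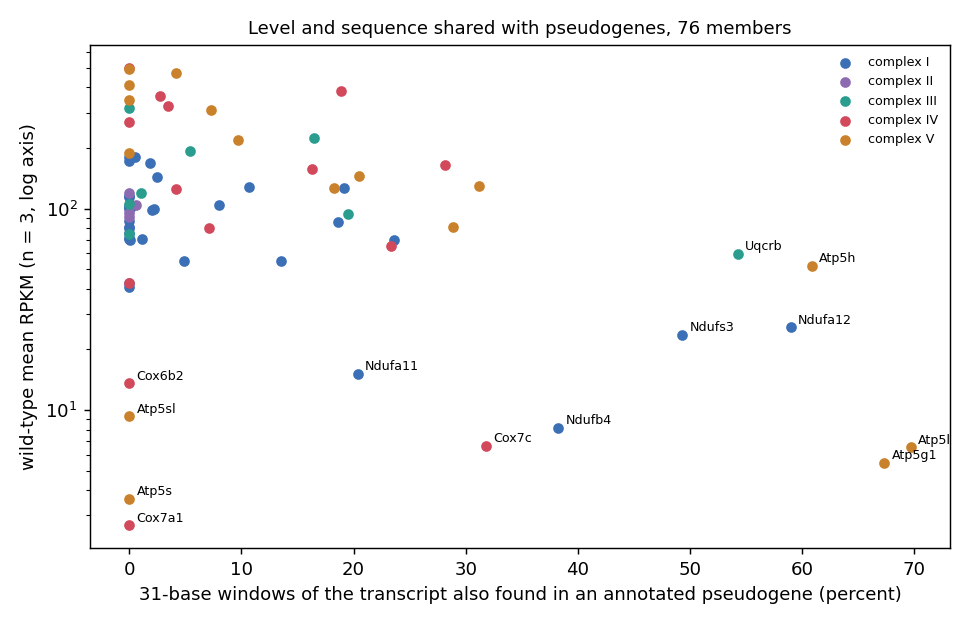
Wild-type mean RPKM (n = 3, log axis) of the 76 members against the percentage of 31-base windows of the transcript that also occur in an annotated pseudogene. The members with more than 50% of such windows lie between 5.46 and 59.7 RPKM in wild type, below the members' median of 101 RPKM.

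Genes that build or serve the complexes were counted in the same way. Of the assembly factors, 3 of 14 for complex I were higher, Ndufaf6 (log2 fold change 0.26, limma adjusted p = 0.0171), Ndufaf4 (0.25, adjusted p = 0.0251) and, named afterwards, Ndufaf2 (0.38), with 0 lower and a median of 0.08. For complex II, 1 of 4 was higher, Acn9 (0.32, adjusted p = 0.0249), and Sdhaf1 missed the threshold (-0.22, adjusted p = 0.0549). For complex III, 1 of 6 was higher, Mnf1 (0.21, adjusted p = 0.0387), and 1 was lower, Ttc19, which clears fragments of the Rieske protein. Ttc19 was at 17.2, 18.7 and 15.3 RPKM in wild type and 12.49, 11.4 and 12.8 RPKM in the Axin1 group, without overlap (-0.45, SE 0.08, adjusted p = 0.00842), and this call held under all 17 alternatives. For complex IV, 4 of 21 were higher, Fam36a (0.34, adjusted p = 0.0106), Pet100 (0.30, adjusted p = 0.0249) and, named afterwards, Cox17 (0.25) and Taco1 (0.24), with a median of 0.14. Fam36a shares 28.8% of its windows with annotated pseudogenes. For complex V, 0 of 5 passed in limma or with voom (2 higher at an unadjusted p under 0.05), with Tmem70 at 0.25 (adjusted p = 0.0595) and Tmem242 at 0.17. Of all 50 assembly factors tested, 9 were higher (18.0%) and 1 lower (2.00%), against 14.4% and 8.37% of all tested genes. The higher factors numbered 3, 5 and 4 without wild-type replicates 1, 2 and 3, and 8, 0 and 3 without Axin1 replicates 1, 2 and 3. After the length correction 1 of the 50, Ndufaf4, was higher (against 11.0% of all tested genes). Sdhaf1, Ttc19 and Cox18 were then lower, 3 of the 50 (against 9.70%).

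Of 9 tested subunits and carriers outside the symbol rule, 3 were higher (33.3%, against 14.4% of all tested genes) and 0 lower (against 8.37%). Their median was 0.21. Atpif1, the inhibitor of ATP synthase, was at 258, 245 and 256 RPKM in wild type and 317, 333 and 321 RPKM in the Axin1 group (log2 fold change 0.36, SE 0.06, limma adjusted p = 0.00549). Usmg5, a small subunit of ATP synthase dimers, was at 29.0, 28.7 and 27.1 RPKM against 37.0, 36.8 and 37.8 RPKM (0.38, SE 0.06, adjusted p = 0.00404). Both were without overlap, and the other higher gene was 2010107E04Rik (0.26, adjusted p = 0.0473), named afterwards. The Atpif1 call held under all 17 alternatives and that of Usmg5 under 16, being lost with length and GC content corrected together (0.14). Usmg5 shares 44.0% of its windows with annotated pseudogenes, so its level is uncertain. Mitochondrial ribosomal proteins help make the subunits encoded in mitochondrial DNA. Of 75 tested, 22 were higher (29.3%, against 14.4% of all tested genes) and 1, Mrps27, was lower (1.33%, against 8.37%). Their median of 0.14 became 0.05 after the length correction. Then 8 of the 75 were higher and 3 lower, where the background was 11.0% and 9.70%. The share of higher genes was thus near the background after this correction. The 22 became 2 without Axin1 replicate 2 or 3, 9 without wild-type replicate 3, and 13 when replicate 1 of either group was left out. Mrps6 (0.40, adjusted p = 0.00367) and Mrpl13 (0.31, adjusted p = 0.0134) had the lowest p. Of 16 genes of the citric acid cycle and pyruvate dehydrogenase 0 passed in limma (5 were higher at an unadjusted p under 0.05, and 1 with voom; median 0.11), with Pdhb at 0.26 (adjusted p = 0.0535) and Cs at 0.19 (adjusted p = 0.0932). Without wild-type replicate 3, 2 of them were higher. Of 12 regulators of mitochondrial genes 1 was higher (8.33%, against 14.4% of all tested genes). It was Gabpb1 (0.26, limma adjusted p = 0.0215), a partner of the ETS factor Gabpa, and this call was lost without Axin1 replicate 2 or 3. Tfb1m stood at 0.20 (adjusted p = 0.0756).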

How the data were processed

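RNA from 6 libraries was measured by ribosome affinity purification and sequencing, per the labels' protocols. Bowtie, DESeq and the build mm9 appear in the submitters' processing notes without versions. Counter, filters and the handling of reads with several matches: not given in the sources used here. Values per library were deposited as RPKM. The headers do not name this unit, which was settled from the values: implied transcript lengths were 0.99 times the reference at the median. Group means of a normalized signal, a fold ratio, a p-value and an adjusted p-value are further columns, per the file headers. The fold equals the wild-type over the Axin1 mean and is inverted here.

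Whole reads were recovered from RPKM and the group signals: 84.9% of values came out whole within 0.05 reads, and 100% for genes with 1 transcript. At 1 kb, 3 reads come to 0.048 to 0.142 RPKM, for counting error only. limma 3.58.1 (R 4.3.3) was run on log2(RPKM + 1) for 12493 genes averaging at least 1 RPKM, two-sided, with Benjamini-Hochberg adjustment. Fold changes are on that scale, which understates low genes. On simulated reads for this comparison (12493 genes, 200 changed), 16.0% of genes changed by a log2 of 0.25 and 88.4% of those changed by 0.5 were recovered, with 12 false calls on average.

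Members and lists were chosen with earlier results of these data known. Named by rule were, per complex, the 4 members with the lowest p, the highest and lowest level and the largest fold change, isoform pairs, all Sdh genes, the 2 lowest p of each list, and Axin1. The grouping of subunits by role, and the other genes called or marked as named afterwards, were added later. Loess corrections (span 0.5) used implied transcript length, and GC content from reference transcripts (98.95% of tested genes). Alternatives were the replicate block, other pseudocounts, filters, scalings and variance models, voom, and each library left out. Promoters are from RefSeq (GRCm38.p6), not the authors' build, and no position was converted. Python 3.11.15, pandas 2.3.3, numpy 2.4.6 and scipy 1.17.1 were used.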

Additional observations from a re-analysis of the deposited data

How the results depend on the processing

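Of the 16 called members, Ndufa12 alone passed under all 17 alternatives. Over called members and alternatives, 150 of 271 combinations kept the call, 120 lost it with the same direction, and 1 changed direction (Ndufa4, -0.012 with length and GC content corrected). With 14 higher and 2 lower as the base, the higher and lower members numbered 8 and 1 with a pseudocount of 0.1, 6 and 4 with the median of ratios, 5 and 4 with the upper quartile, 2 and 8 with the length correction, and 1 and 5 with length and GC content. The lower members numbered 1 with no filter, 1 with voom, 3 with a pseudocount of 10, and 4 with trend and robust variances. Their median of 0.10 became 0.051 and 0.042 with the rescalings, -0.013 with length and -0.028 with length and GC content, where the medians of complexes I to IV were -0.048, -0.028, -0.024 and -0.035. With length alone those of complexes I, III and IV were -0.031, -0.0451 and -0.0454. All genes called numbered 1889 with length and GC content, against 2846. Without a single library, the higher members ranged from 3 to 14, the lower from 0 to 1, the median from 0.085 to 0.12 and all genes called from 1054 to 2318. The cause of these shifts was not tested. The labels do not state that the replicate numbers pair the samples. Deviations of same-numbered libraries correlated weakly, by 0.08, 0.13 and 0.06, and each library correlated best with its own number. Whether the numbers mark a pairing was not settled by these values. With the replicate block, 8 members were higher and 1 lower, the members' median was 0.10 and 2675 genes were called. On the simulated reads, with 200 changed genes, 16.0% of changes by a log2 of 0.25 were recovered. Far more genes were called in the deposited data (2846), so that rate need not hold there. Some called members had smaller changes, such as Atp5c1 (0.20) and Ndufv1 (-0.21).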
